A study of Arabidopsis thaliana with 12 samples.

Results

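Seedlings of the fve-4 mutant of Arabidopsis thaliana were compared with wild type Columbia (Col) after a shift to 27 °C. The comparison covers the 19401 genes, of 27655 in the deposited table, that had at least 1 TPM in at least 3 of the 6 libraries at 27 °C. TPM is a transcript level scaled so that every library sums to the same total. Plants of both genotypes were raised at 21 °C under short days of 8 h light and 16 h dark until they were 7 days old. At ZT1, 1 h after lights on, they were moved to 27 °C or left at 21 °C. Whole seedlings were collected at ZT13, 12 h after the shift and 5 h into the dark period. The 4 groups are thus Col at 27 °C, fve-4 at 27 °C, Col at 21 °C and fve-4 at 21 °C, with 3 libraries each. The growth text also speaks of mannitol, which the label of no library used here names. The mutant is a single allele, and its lesion is not described in the labels. Nothing says that the 3 libraries of a group came from separate cultures, so the p-values measure the spread between these libraries, which may be technical.

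FVE, also called MSI4, is a WD40-repeat protein found in histone deacetylase complexes, and is known as a member of the autonomous flowering pathway that keeps the floral repressor FLC low. Seedlings kept in the warm elongate, a response known as thermomorphogenesis. In it the transcription factor PIF4 acts on auxin synthesis genes such as YUC8 and on auxin-responsive growth genes, while the evening complex of ELF3, ELF4 and LUX holds PIF4 back.

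Differences are given as fve-4 minus Col in mean log2(TPM + 1), with standard errors, and understate the change of genes near 0 TPM. A call means that limma gave a p, adjusted after Benjamini and Hochberg over all 19401 genes, under 0.05 (two-sided, n = 3 against 3). Levels are TPM by library in replicate order, and fold values are ratios of mean TPM. TPM were scaled by gene span with introns, so levels are compared between libraries and not between genes. The libraries at 27 °C held 11465313 to 14461167 reads in genes. Col replicate 3 lay farthest from its group, with a mean squared deviation of 0.037 on the log2 scale against 0.019 to 0.025 for the other 5. In whole seedlings, fewer cells of a type and less RNA per cell cannot be told apart.

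FVE mRNA itself was 39.27, 41.56 and 39.89 TPM in Col and 7.003, 6.822 and 6.638 TPM in fve-4 at 27 °C. It was thus 5.9-fold lower in the mutant, with no overlap (difference -2.40 ± 0.07, adjusted p = 1.85e-10), and was lower by 3.1 ± 0.07 at 21 °C. HDA9, a histone deacetylase, was 13.06, 13.99 and 15.55 TPM in Col and 16.90, 15.33 and 14.45 in fve-4, overlapping and without a call (adjusted p = 0.241). MSI5, the closest relative of FVE, was higher by 0.40 ± 0.12 (adjusted p = 0.019). That call was lost without Col replicate 3 (0.32) or fve-4 replicate 3 (0.39). Of the 13 genes written down as the FVE complex and its partners, 2 were higher and 5 lower, FVE among them. These are 15.4% and 38.5%, against 21.1% and 18.1% of all genes. Apart from FVE none differed by more than 0.40. The count of higher members was 0 without Col replicate 3 and 1 without Col replicate 2 or any of the fve-4 replicates.

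At 27 °C 4089 genes (21.1%) were higher and 3504 (18.1%) lower in fve-4, 39.1% of all genes tested, so a call alone says little about a gene. The counts of list members given below are to be read against these shares. A gene under 1 TPM in every library of 1 genotype passed the filter only through the other. List counts can therefore lean toward the genotype where such genes are high. The median difference over all genes was 0.02. Large differences were rarer and leaned upward: 503 genes (2.59%) were called with a difference of at least 1, a factor of 2 on this scale, in the higher direction, and 164 (0.845%) in the lower direction. Among all called genes 53.9% were higher, a share that fell below 50% under 4 other settings of scaling or filter, down to 46.4%. All 3 fve-4 libraries lay above all 3 Col libraries for 25.8% of genes and below them for 24.7%. Between the genotypes at 21 °C, measured in other libraries, 2983 genes (15.4%) were higher and 1678 (8.65%) lower. The interaction, the difference at 27 °C minus that at 21 °C, was called positive for 2838 genes (14.6%) and negative for 3594 (18.5%).

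Of the 503 strongly higher genes, 134 (26.6%) were also called higher at 21 °C, against 15.4% of all genes, 63 were called lower there and 306 were not called. The interaction was called for 301 of them (59.8%), against 33.2% of all genes. Of the 164 strongly lower genes, 45 (27.4%) were also called lower at 21 °C, against 8.65% of all genes, 17 were called higher and 102 were not called. The interaction was called for 134 of these (81.7%). Of the 164, 137 had a promoter read from a nuclear chromosome, and chloroplast-encoded genes were among the others. Since size at 27 °C chose both sets, these shares are descriptions.

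**Figure D1:**
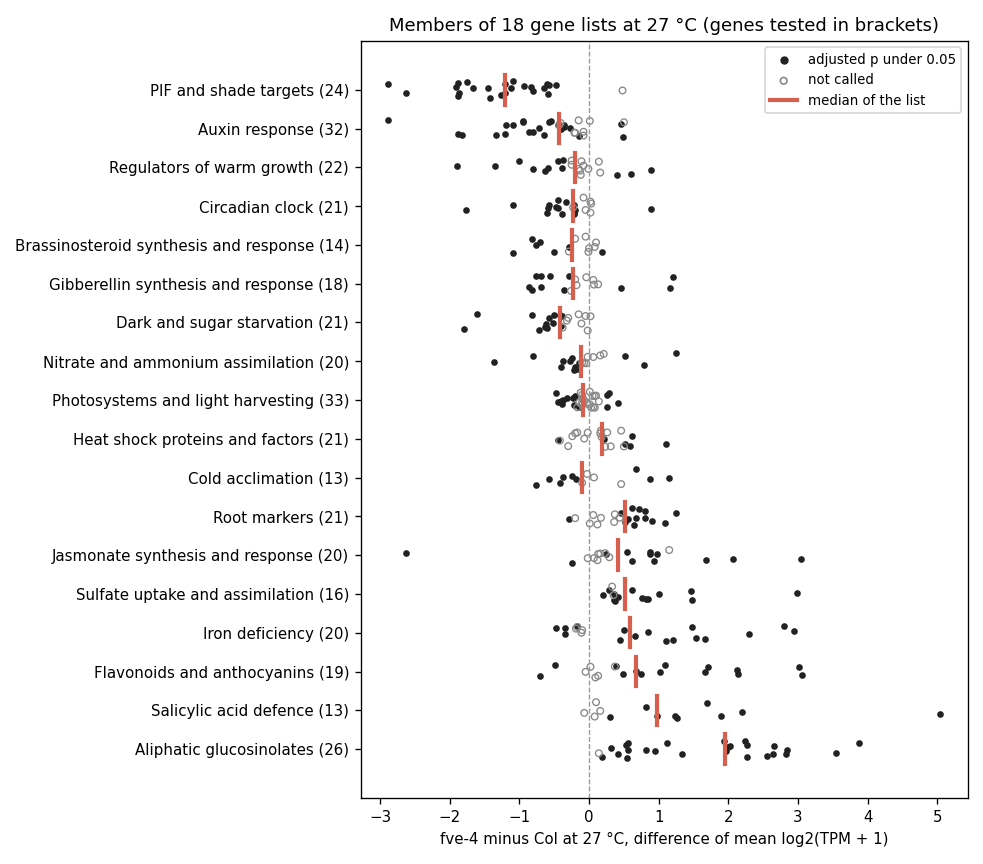
Difference between fve-4 and Col at 27 °C (x axis, log2(TPM + 1)) for every tested member of 18 gene lists, 1 point per gene and a red bar at each list's median. Apart from XTH15 (0.48), the PIF and shade targets sit left of 0, and the list's median is -1.2. The aliphatic glucosinolate genes sit right of 0 around 1.95, while the median of all genes is 0.02.

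Of the 6 genes of the FLC clade, 3 were higher, 1 lower and 2 not called. FLC, the MADS-box floral repressor, was 3.062, 2.908 and 2.600 TPM in Col and 28.23, 28.38 and 29.99 TPM in fve-4. All mutant libraries lay far above the wild type (2.95 ± 0.10, adjusted p = 6.71e-10), and the difference at 21 °C was 2.63 ± 0.10, with no call for the interaction (adjusted p = 0.0882). The related MAF5 was 0.8251, 0.4151 and 0.3603 TPM in Col against 5.004, 5.021 and 4.620 in fve-4. MAF4 was 2.26-fold higher (0.95 ± 0.12), with 0.85 ± 0.12 at 21 °C, whereas MAF1 was slightly lower (-0.30). MAF2 and MAF3 (-0.17 each) were not called. Without Col replicate 1, 2 of the clade were lower. SOC1, the floral integrator that FLC represses, was lower by 1.3 ± 0.16 (adjusted p = 5.88e-05). SVP, a repressor that acts with FLC, was 63.48 ± 2.17 TPM in Col and 31.74 ± 1.12 in fve-4 (mean ± SD, n = 3, as for all levels given with ±), 2.0-fold lower with no overlap. At 21 °C SVP differed by -0.12 ± 0.07 without a call, and its interaction was called (-0.86, adjusted p = 4.02e-05). FT, the mobile flowering signal, was listed at 0 in all 6 libraries at 27 °C and was not tested.

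Some of the regulators of warm growth were lower in the mutant. Of 22 tested, 9 were lower and 3 higher (40.9% and 13.6%), with a median of -0.20. PIF4 was 78.07, 85.92 and 85.30 TPM in Col and 36.83, 55.20 and 50.99 TPM in fve-4. The highest mutant library stayed below the lowest wild-type library (1.74-fold lower, -0.81 ± 0.16, adjusted p = 0.00163). At 21 °C, where PIF4 was 3.306 to 5.793 TPM in Col, it was higher in the mutant by 0.58 ± 0.16 (adjusted p = 0.0186), and the interaction was -1.39 ± 0.23 (adjusted p = 0.0005). PIF5, its close relative, was 49.91, 53.36 and 52.66 TPM in Col and 20.33, 28.36 and 28.55 in fve-4 (-1.0 ± 0.15). PIF3 was lower by 0.64 ± 0.08. PIF1 (-0.15) and PIF7 (-0.25) were not called.

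Among the upstream factors, the parts of the evening complex did not move together. ELF3 was lower by 0.39 ± 0.06 and LUX by 0.59 ± 0.07, while ELF4 was higher by 0.89 ± 0.10, at 80.85, 75.99 and 65.17 TPM in Col against 163.5, 124.8 and 128.1 in fve-4. At 21 °C all 3 were higher in the mutant, by 0.33 for ELF3, 0.28 for LUX and 0.32 for ELF4. PHYB, the red-light receptor that also senses warmth, was lower by 0.37 ± 0.05 (57.04 ± 1.02 TPM in Col, 43.92 ± 1.28 in fve-4). HY5, a bZIP factor that opposes elongation, was higher by 0.60 ± 0.11. HFR1 and PIL1, both proteins that PIFs induce, were lower: HFR1 was 36.31, 42.91 and 39.88 TPM in Col and 9.372, 11.27 and 9.407 in fve-4 (-1.89 ± 0.13), and PIL1 was lower by 1.35 ± 0.21.

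Among the lists, chosen with earlier results of these data known, the PIF and shade targets were the most uniformly lower. Of 24 tested, 23 were lower and 0 higher (95.8% lower, against 18.1% of all genes), with a median of -1.2. In all 23 the 3 mutant libraries lay below the 3 wild-type libraries, as they did for 24.7% of all genes. At 21 °C 5 of the 24 were lower and the median was -0.23. The interaction was called negative for 20.

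Auxin synthesis and response genes led this group. YUC8, the flavin monooxygenase that makes auxin in warm cotyledons, was 18.11, 20.82 and 21.97 TPM in Col and 4.392, 4.205 and 5.376 in fve-4. It was 4.36-fold lower (-1.91 ± 0.17, adjusted p = 4.39e-06) and was not called at 21 °C (0.08 ± 0.17), where Col held 2.160 to 3.625 TPM. IAA29, an Aux/IAA repressor, was 108.5, 119.7 and 119.2 TPM in Col and 11.13, 16.76 and 17.58 in fve-4. This 7.64-fold difference (-2.88 ± 0.18) was also present at 21 °C at a smaller size (-1.16 ± 0.18). IAA19 was 3.94-fold lower (44.93, 40.96 and 38.91 TPM against 10.04, 10.17 and 11.49), and SAUR19, a small auxin-induced protein that promotes cell expansion, was 4.06-fold lower. SAUR19, SAUR20, SAUR22, SAUR23 and SAUR24 are near-identical copies, so their separate values are uncertain. ATHB2, a homeobox gene of the shade response, was 45.32, 41.93 and 43.43 TPM in Col and 13.56, 14.61 and 18.02 in fve-4 (-1.45 ± 0.11).

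ST2A, a sulfotransferase of jasmonate inactivation, was 65.40, 62.07 and 66.09 TPM in Col and 8.198, 10.53 and 10.11 TPM in fve-4 (-2.63 ± 0.10, adjusted p = 2.83e-09). It was lower by 0.40 ± 0.10 at 21 °C. The member without a call was XTH15, a wall-modifying enzyme, whose mean was higher in fve-4 (0.48). It overlapped between groups because fve-4 replicate 1 held 38.95 TPM while replicates 2 and 3 held 112.7 and 111.2.

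**Figure D2:**
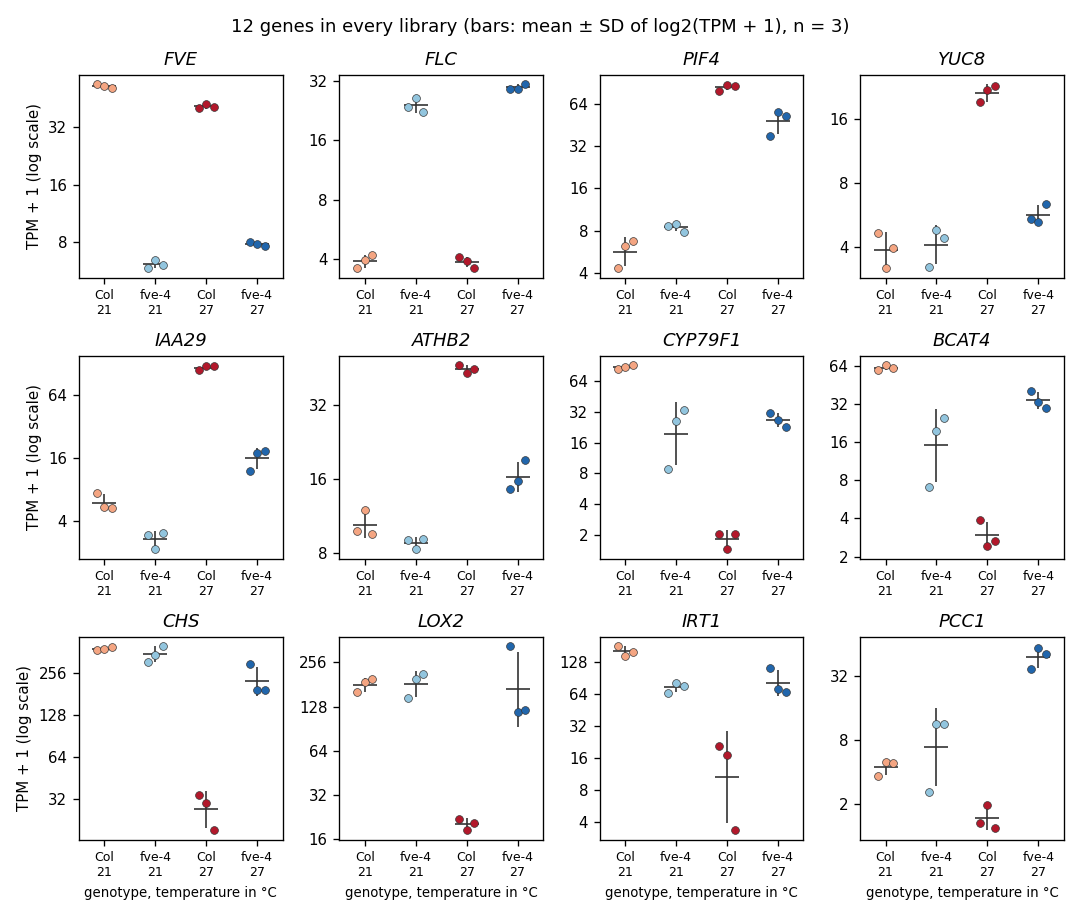
TPM + 1 (log axis) of 12 genes in all 12 libraries, 1 point per library, with bars for mean ± SD of log2(TPM + 1). PIF4, YUC8, IAA29 and ATHB2 are highest in Col at 27 °C, CYP79F1, BCAT4, CHS and LOX2 are lowest there, and FVE and FLC separate by genotype at both temperatures.

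The promoters of 5 members are shown, from 250 bases before to 50 after the annotated start (RefSeq annotation and sequence of TAIR10.1), because PIF factors are known to bind the G-box CACGTG and the E-box CATGTG. No fixed rule chose these 5, and they do not stand for the list of PIF and shade targets. In that list 9 of 24 promoters held CATGTG and 2 held CACGTG. Both motifs were searched on both strands, and no match to the first is a match to the second. Capitals mark a match, and positions count back from -1, the base before the start. IAA19 (chr3:5263751-5264050, plus strand) holds CACGTG at -70 and CATGTG at -177. YUC8 (chr4:14192319-14192618, plus strand) holds CATGTG, read on the other strand, at -53. SAUR19 (chr5:5963356-5963655, minus strand) holds CATGTG at -189, read on the other strand, and at -123. FHL (chr5:437115-437414, plus strand), a phytochrome transport gene lower by 0.61 ± 0.17, holds CACGTG at -129 and -75. IAA29 (chr4:15583082-15583381, plus strand), with the largest difference, holds neither in this window.
IAA19: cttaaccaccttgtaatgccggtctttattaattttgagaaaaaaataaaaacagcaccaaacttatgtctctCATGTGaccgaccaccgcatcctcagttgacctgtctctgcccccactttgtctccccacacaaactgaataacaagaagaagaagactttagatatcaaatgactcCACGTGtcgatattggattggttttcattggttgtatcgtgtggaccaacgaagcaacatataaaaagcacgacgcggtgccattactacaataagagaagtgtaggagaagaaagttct
YUC8: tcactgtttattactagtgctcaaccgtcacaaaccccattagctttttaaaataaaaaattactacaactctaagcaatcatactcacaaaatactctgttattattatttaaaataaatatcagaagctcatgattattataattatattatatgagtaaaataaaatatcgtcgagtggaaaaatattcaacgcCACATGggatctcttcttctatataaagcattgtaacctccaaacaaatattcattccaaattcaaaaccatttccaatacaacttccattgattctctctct
SAUR19: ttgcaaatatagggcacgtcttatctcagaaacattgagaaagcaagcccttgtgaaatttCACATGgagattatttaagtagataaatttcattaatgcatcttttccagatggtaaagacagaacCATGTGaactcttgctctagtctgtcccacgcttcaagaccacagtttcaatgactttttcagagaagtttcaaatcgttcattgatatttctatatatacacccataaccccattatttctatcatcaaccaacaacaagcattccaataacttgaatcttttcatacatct
FHL: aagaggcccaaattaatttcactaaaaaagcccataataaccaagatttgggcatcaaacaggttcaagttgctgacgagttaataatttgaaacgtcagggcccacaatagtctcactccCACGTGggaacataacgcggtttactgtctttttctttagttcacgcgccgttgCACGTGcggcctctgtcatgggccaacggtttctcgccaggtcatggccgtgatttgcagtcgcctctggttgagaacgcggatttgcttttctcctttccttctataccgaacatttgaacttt
IAA29: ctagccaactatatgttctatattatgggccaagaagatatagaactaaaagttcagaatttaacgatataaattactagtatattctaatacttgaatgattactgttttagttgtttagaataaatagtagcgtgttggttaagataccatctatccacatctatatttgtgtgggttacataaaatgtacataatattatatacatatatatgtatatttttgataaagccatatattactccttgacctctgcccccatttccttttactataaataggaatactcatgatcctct

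CATGTG was in 9 of 24 promoters of the PIF and shade targets (37.5%) and 14 of 32 of the auxin response genes (43.8%), against 12.9% of all genes tested. It was in 22.6% of the 137 strongly lower genes with a promoter and 16.3% of the 502 strongly higher ones. CACGTG was in 2 of 24 and 5 of 32 of these lists, against 8.91% of all genes tested, in 12.4% of the strongly lower and in 8.17% of the strongly higher genes. These shares describe letters in a window and say nothing about binding.

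The auxin response list moved the same way less uniformly, with 21 of 32 lower and 2 higher (65.6% and 6.25%) and a median of -0.43. IAA2 was 228.9 ± 5.83 TPM in Col and 90.59 ± 5.89 in fve-4 (-1.33 ± 0.05), and at 21 °C it was higher in the mutant by 0.17. GH3.5, which conjugates auxin to amino acids, was lower by 1.2 ± 0.07. PIN3, an auxin efflux carrier, was lower by 1.19 ± 0.07, at 185.8, 198.8 and 211.0 TPM in Col and 78.26, 90.94 and 90.02 in fve-4. GH3.1 (0.49) and SAUR14 (0.46) were the 2 called higher, but 1 was left without Col replicate 3 or without any of the fve-4 replicates. In auxin synthesis, YUC2 was also lower (7.644 ± 0.741 against 2.167 ± 0.0789 TPM), while TAA1, which makes the YUCCA substrate, was at 12.1 and 11.8 TPM on average without a call. Of the 11 synthesis genes tested, 3 were lower and 2 higher, and 1 was higher without Col replicate 1 or 3 or fve-4 replicate 2 or 3.

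Other growth hormones followed in part. Brassinosteroid genes were lower for 6 of 14 tested and higher for 1 (0 without Col replicate 3), with a median of -0.24. BRI1, the brassinosteroid receptor, was 168.0, 169.6 and 176.6 TPM in Col and 92.33, 102.8 and 94.78 in fve-4 (-0.82 ± 0.05). CPD, a synthesis enzyme, was lower by 0.71 ± 0.08, and BAS1, which inactivates the hormone, by 1.09 ± 0.08. Gibberellin genes were lower for 8 of 18 and higher for 3. The DELLA repressors GAI (-0.76), RGL3 (-0.82), RGL1 (-0.56) and RGA (-0.29) were among the lower ones. GA3ox2, which makes active gibberellin, was higher by 1.16 ± 0.25, and GASA1, a gibberellin-induced peptide gene, by 1.2 ± 0.21, at 583.3, 500.2 and 364.5 TPM in Col and 721.3, 1336 and 1357 in fve-4.

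Wall-loosening genes split. Of 24 tested, 11 were lower and 7 higher, between -1.2 for LNG2, which promotes lengthwise growth, and 1.70 for XTH25. EXPA8, an expansin, was 171.4 ± 19.1 TPM in Col and 77.43 ± 7.82 in fve-4 (-1.14 ± 0.12), and XTH24 was lower by 1.09 ± 0.19. In the other direction XTH9 was 121.3 ± 5.92 TPM in Col and 265.0 ± 32.2 in fve-4 (1.11 ± 0.09). XTH31 was higher by 0.89 ± 0.13 at 27 °C and lower by 1.38 ± 0.13 at 21 °C, where Col held 250.1 to 260.0 TPM.

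Beyond the lists, the largest fall was that of FLP1, annotated as a flowering-promoting factor-like protein, at 45.03, 64.91 and 62.27 TPM in Col and 5.617, 6.187 and 1.776 in fve-4 (12.7-fold, -3.50 ± 0.35, adjusted p = 9.72e-06). ACS8, an ethylene synthesis enzyme, was 5.07-fold lower, and MAKR6, a membrane-associated kinase regulator, 3.93-fold. PnsL4, a subunit of the chloroplast NDH complex, behaved otherwise. It was 73.39, 77.73 and 77.24 TPM in Col and 20.96, 21.04 and 20.66 in fve-4 (-1.82 ± 0.06), and was lower still at 21 °C (-2.61 ± 0.06). Several genes that RefSeq gives no symbol, named here after their values were seen, also fell, by less than FLP1. They include AT5G02540, a Rossmann-fold protein (102.5 ± 3.97 against 17.57 ± 6.26 TPM), AT1G29090, a cysteine proteinase (17.47 ± 3.08 against 2.424 ± 0.867), and AT1G12080, annotated as a vacuolar calcium-binding protein (541.0, 535.9 and 509.3 against 110.0, 140.6 and 139.3 TPM).

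The clock list was lower as well. At this hour of the night, 14 of 21 tested genes were lower and 1 (ELF4) higher, with a median of -0.23. The count fell to 8 without Col replicate 3 and to 8 without fve-4 replicate 1. PRR7, a morning-side repressor, was 11.84, 13.97 and 12.85 TPM in Col and 2.310, 3.429 and 3.559 in fve-4 (-1.77 ± 0.14), and at 21 °C was near 1 TPM in both genotypes. GI was lower by 1.09 ± 0.13 and TOC1, the evening repressor, by 0.33 ± 0.07. At 21 °C 7 of the list were higher and 2 lower.

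Among the lists, chosen with earlier results of these data known, the aliphatic glucosinolate genes were the most uniformly higher. Glucosinolates are sulfur-rich defence compounds of the cabbage order, and the aliphatic ones are built from methionine. Of 26 genes tested, 25 were higher and 0 lower (96.2%, against 21.1% of all genes), with a median of 1.95. At 21 °C all 26 were lower in the mutant, with a median of -1.15 (8.65% of all genes were lower there), and the interaction was called positive for all 26. The summed TPM of the list was 554.6 to 589.0 in Col at 27 °C and 3114 to 3262 at 21 °C, while fve-4 ranged from 1247 to 1520 and from 1213 to 1760.

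CYP79F1, which starts the core pathway from chain-elongated methionine, was 1.048, 0.4346 and 1.029 TPM in Col and 30.22, 25.33 and 21.70 in fve-4 at 27 °C. The difference was 3.87 ± 0.35 (adjusted p = 4.85e-06). At 21 °C Col held 82.49 to 90.46 TPM and fve-4 7.747 to 32.15, so that the sign turned (-2.17 ± 0.35) and the interaction reached 6.04 ± 0.49. CYP79F1 and CYP79F2 (2.56) are close copies of each other, and their reads may be shared. BCAT4, the aminotransferase that opens methionine chain elongation, was 2.907, 1.437 and 1.645 TPM in Col and 39.36, 32.27 and 28.46 in fve-4 (16.7-fold, 3.54 ± 0.34). MAM1, the chain-elongating synthase, was 4.97-fold higher (17.65, 11.09 and 15.21 against 80.55, 73.15 and 64.75 TPM). CYP83A1, the next core enzyme, was 7.51-fold higher (2.84 ± 0.14, adjusted p = 2.48e-08).

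The regulators of this pathway differed in size. MYB28, its main activator, was 42.71, 45.25 and 47.27 TPM in Col and 61.18, 59.67 and 60.41 in fve-4, higher by only 0.42 ± 0.06. MYB29 was 0.6169, 0.9379 and 1.604 TPM in Col and 7.611, 6.487 and 5.995 in fve-4 (6.36-fold, 1.93 ± 0.20), and MYB76 was higher by 1.33 ± 0.23. The transporter gene GTR2 was the member without a call (0.14 ± 0.08, adjusted p = 0.166), and IMDH3 had the smallest called difference (0.18).

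**Figure D3:**
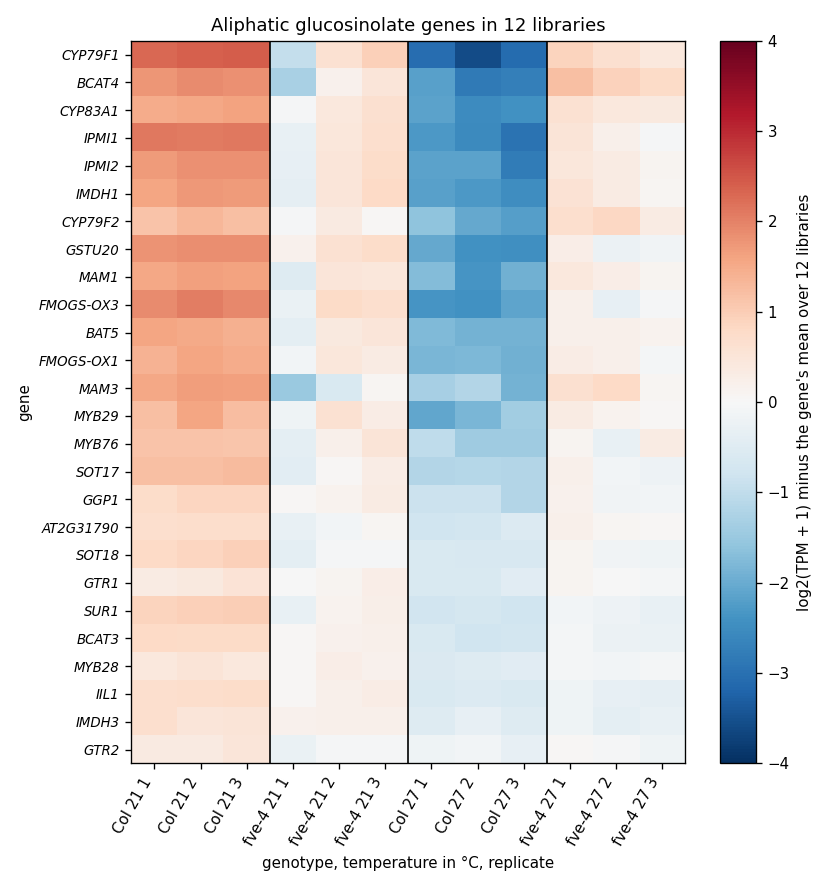
Level of 26 aliphatic glucosinolate genes (rows, ordered by the difference at 27 °C) in 12 libraries (columns), as log2(TPM + 1) minus the gene's mean over all libraries. Col at 21 °C is red and Col at 27 °C blue, and fve-4 lies between them at both temperatures.

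Genes of indole glucosinolates and camalexin gave 6 higher and 3 lower of 15, with a median of 0.27. MYB34, an activator of the indole branch, was higher by 0.68, and IGMT1, a methyltransferase of that branch, lower by 1.48 ± 0.12 (55.24 ± 7.73 against 19.05 ± 1.55 TPM). TGG2, a myrosinase that breaks glucosinolates down, was higher by 0.89 ± 0.11 and at 21 °C lower by 1.80 ± 0.11. Sulfate uptake and assimilation was higher for 14 of 16 tested and lower for 0, with a median of 0.52. The count was 10 without Col replicate 3 and 9 without fve-4 replicate 1. APR1, the reductase that controls assimilation, was 18.92, 19.27 and 13.39 TPM in Col and 59.64, 46.15 and 42.47 in fve-4 (2.87-fold, 1.47 ± 0.14). APK2, which makes the sulfate donor for glucosinolates, was 2.05-fold higher at 27 °C (1.0 ± 0.17) and lower by 1.29 ± 0.17 at 21 °C. LSU1, a marker of sulfur limitation, was 1.635, 0.9488 and 0.1983 TPM in Col and 17.57, 11.39 and 12.25 in fve-4 (2.98 ± 0.34, or 2.68 without Col replicate 3).

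Flavonoid and anthocyanin genes were higher for 12 of 19 and lower for 2, with a median of 0.68, and at 21 °C 1 was higher and 5 lower. CHS, chalcone synthase, which opens the pathway, was 33.13, 28.85 and 17.98 TPM in Col and 291.7, 192.0 and 192.2 in fve-4. All mutant libraries lay far above the wild type (8.45-fold, 3.05 ± 0.19, adjusted p = 3.32e-07), and below the 368.0 to 386.1 TPM of Col at 21 °C. DFR, the first enzyme of the anthocyanin branch, was 0.6093, 0.5052 and 0.3167 TPM in Col and 6.515, 4.784 and 5.320 in fve-4 (2.14 ± 0.13). LDOX, the next enzyme, was higher by 3.01 ± 0.23. The 2 lower members, of which 1 was left without Col replicate 1 or 3 or fve-4 replicate 2 or 3, were both MYB genes: MYBL2, an inhibitor of the pathway, was lower by 0.71 ± 0.16, and MYB111, an activator of flavonol genes, by 0.49.

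Iron deficiency genes were higher for 12 of 20 and lower for 4, with a median of 0.58. IRT1, the iron importer of the root surface, was 19.69, 16.02 and 2.328 TPM in Col and 111.8, 70.08 and 65.31 in fve-4. The groups did not overlap, but Col replicate 3 was far below the other 2 (2.94 ± 0.48, adjusted p = 0.000435; 2.11 without Col replicate 3, and 1.87 without that library and fve-4 replicate 1). FRO2, the ferric reductase that works with it, was higher by 2.80 ± 0.32 (2.29 without Col replicate 3), and FIT, the bHLH factor above both, by 1.11 ± 0.24. CYP82C4, a coumarin enzyme induced without iron, was 1.510, 0.5842 and 0.1831 TPM in Col and 18.04, 16.15 and 11.98 in fve-4 (3.27 ± 0.22), and was lower by 1.82 ± 0.22 at 21 °C. The bHLH factors of the iron response, bHLH38 (1.47), bHLH39 (1.53) and bHLH100 (1.67), were higher as well, as was F6'H1 (2.29), which makes coumarins that dissolve iron. The ferritin genes FER3 (-0.18) and FER4 (-0.34), which store iron, were lower.

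Root markers were also higher in part at 27 °C. Their summed level there was 257.8, 262.4 and 173.9 TPM in Col and 348.8, 259.0 and 299.6 in fve-4, lowest in Col replicate 3 and highest in fve-4 replicate 1. The groups overlapped in this sum. At 21 °C 1 root marker was higher and 0 lower, against 2 higher and 6 lower iron genes. The interaction was called positive for 2 root markers and negative for 1, against 11 and 3 iron genes. Of 21 tested, 12 were higher and 1 lower, with a median of 0.51, and NRT2.1, a root nitrate importer, was at 0 in every Col library. The count of higher members was 4 without Col replicate 3, 3 without fve-4 replicate 1, 7 without fve-4 replicate 3, and 1 without both Col replicate 3 and fve-4 replicate 1. EXPA7, an expansin of root hairs, was higher by 1.25 with overlapping groups, and by 0.51, without a call, when these 2 libraries were left out. The part of the root share in the iron and sulfate results was not tested. The leaf and shoot markers summed to 29260 to 33210 TPM in Col and 29000 to 30120 in fve-4, with 4 of 20 higher and 8 lower. Of these, 2 were higher without any 1 of the Col replicates or without fve-4 replicate 2 or 3.

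**Figure D4:**
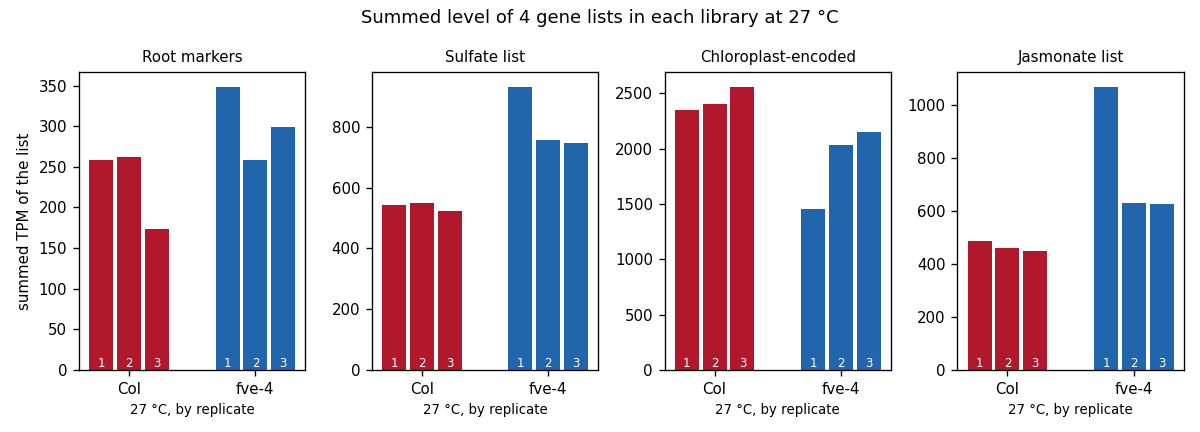
Summed TPM of 4 gene lists (y axis) in each library at 27 °C, 1 bar per library with its replicate number, Col in red and fve-4 in blue. Col replicate 3 is lowest for root markers (173.9), and fve-4 replicate 1 is highest for the jasmonate list (1069) and lowest for chloroplast-encoded genes (1458).

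Of 20 salicylic acid defence genes written down, 13 passed the filter on low values. Of these, 9 were higher and 0 lower (69.2% higher, against 21.1% of all genes), with a median of 0.97. A member near 0 TPM in Col could pass only through fve-4, so the count and median can lean toward higher. The count of higher members was 6 to 11 under other scalings, filters and fits. PCC1, a small protein gene under pathogen and clock control, was 0.3340, 0.9695 and 0.2026 TPM in Col and 36.06, 58.03 and 50.71 in fve-4, 96.1-fold higher (5.04 ± 0.44, adjusted p = 3.76e-06). At 21 °C it was not called (0.63 ± 0.44). ACD6, an ankyrin membrane protein that promotes defence, was 9.532, 9.741 and 10.75 TPM in Col and 41.68, 54.78 and 52.90 in fve-4 (2.2 ± 0.09), with 1.3 ± 0.09 at 21 °C. WRKY70, a transcription factor of the salicylic acid response, was 4.35-fold higher. SARD1 (1.69), an activator of salicylic acid synthesis, and PAD4 (0.97), a lipase-like regulator, were called too, while ICS1 (0.10), the synthesis enzyme, and NPR1 (0.08), the receptor, were not. The late markers were low or uneven: PR1 was 7.186, 0.5512 and 1.476 TPM in fve-4 and did not pass the filter on low values.

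Another 3 genes had no read in any Col library at 27 °C and at least 1 TPM in all fve-4 libraries there, while 0 genes did the reverse. All 3 had reads in Col at 21 °C. In fve-4 at 27 °C LURP1, known from the response to a downy mildew, was 6.017, 6.512 and 5.103 TPM. There AT2G15042, a leucine-rich repeat gene, was 2.609, 3.865 and 2.126, and AT1G59930, a MADS-box gene, was 1.366, 1.677 and 1.404. At 21 °C LURP1 was 0.483, 0.1425 and 0.5425 TPM in fve-4.

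The largest differences of all lay in genes that RefSeq gives no symbol, named here after their values were seen. AT5G42530, an uncharacterized protein, was 3.932, 3.593 and 3.180 TPM in Col and 533.3, 960.7 and 865.2 in fve-4. That is 220-fold higher in the mutant (7.39 ± 0.32, adjusted p = 6.71e-09), against 1.2 ± 0.32 at 21 °C. AT3G22235, a cysteine-rich membrane-module protein, was 0.4838, 0.3511 and 0.4402 TPM in Col and 79.51, 99.01 and 103.9 in fve-4 (6.05 ± 0.40). AT2G25510 was 57.7-fold higher (11.95, 12.94 and 9.733 against 538.1, 777.7 and 681.3 TPM). AT3G22240, annotated as similar to PCC1, was 31.83 ± 5.89 and 39.07 ± 4.42 TPM and was not called (0.30 ± 0.13, adjusted p = 0.0848).

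ECS1, a cell-wall protein gene, was 107.0, 96.24 and 106.6 TPM in Col and 978.4, 1530 and 1207 TPM in fve-4 (12-fold, 3.55 ± 0.15). MES18, a methyl esterase, was 18.6-fold and EARLI1, a lipid-transfer-like protein, 20.4-fold higher. QQS, an orphan gene that affects starch, was 4.379, 4.604 and 5.773 TPM in Col and 45.85, 46.34 and 50.29 in fve-4 (3.04 ± 0.10). Unlike these others it differed as much at 21 °C (3.22 ± 0.10, interaction adjusted p = 0.392), as did AT1G27565 (3.13 ± 0.26 and 3.28 ± 0.26).

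Jasmonate genes were higher for 10 of 20 and lower for 2. LOX2, the chloroplast lipoxygenase that starts jasmonate synthesis, was 21.05, 17.46 and 19.84 TPM in Col and 329.5, 116.5 and 120.3 in fve-4 (3.04 ± 0.29, and 2.55 without fve-4 replicate 1). AOC2, a later enzyme, was 29.73, 24.33 and 25.26 TPM against 183.2, 90.13 and 88.75 (2.07 ± 0.20). MBP1, a myrosinase-binding protein, was 1.908, 2.110 and 1.818 TPM against 71.01, 18.19 and 17.87 (3.33 ± 0.40, and 2.69 without fve-4 replicate 1). In each of these the groups did not overlap and fve-4 replicate 1 was the highest. AOC1 was higher by 1.68, and by 1.1 without that library. The 2 lower members were ST2A and MYC3 (-0.25), a transcription factor of the response.

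Genes of dark and sugar starvation turned with temperature. At 27 °C 13 of 21 were lower and 0 higher, with a median of -0.42. At 21 °C 15 were higher and 0 lower, with a median of 0.67, and the interaction was called negative for 19. BCAT2, an enzyme of branched-chain amino acid breakdown, was 30.59, 31.78 and 28.94 TPM in Col and 6.386, 8.547 and 9.631 in fve-4 (-1.79 ± 0.27), and was higher by 1.84 ± 0.27 at 21 °C. MGL, which degrades methionine, was 102.6 ± 5.89 TPM in Col and 32.93 ± 2.88 in fve-4 (-1.61 ± 0.11), and higher by 0.74 ± 0.11 at 21 °C. ASN1, the asparagine synthase induced in the dark, was 217.9 ± 10.2 and 218.9 ± 45.9 TPM at 27 °C without a call, but 4.215 to 5.031 TPM in Col and 25.64 to 64.11 in fve-4 at 21 °C.

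**Figure D5:**
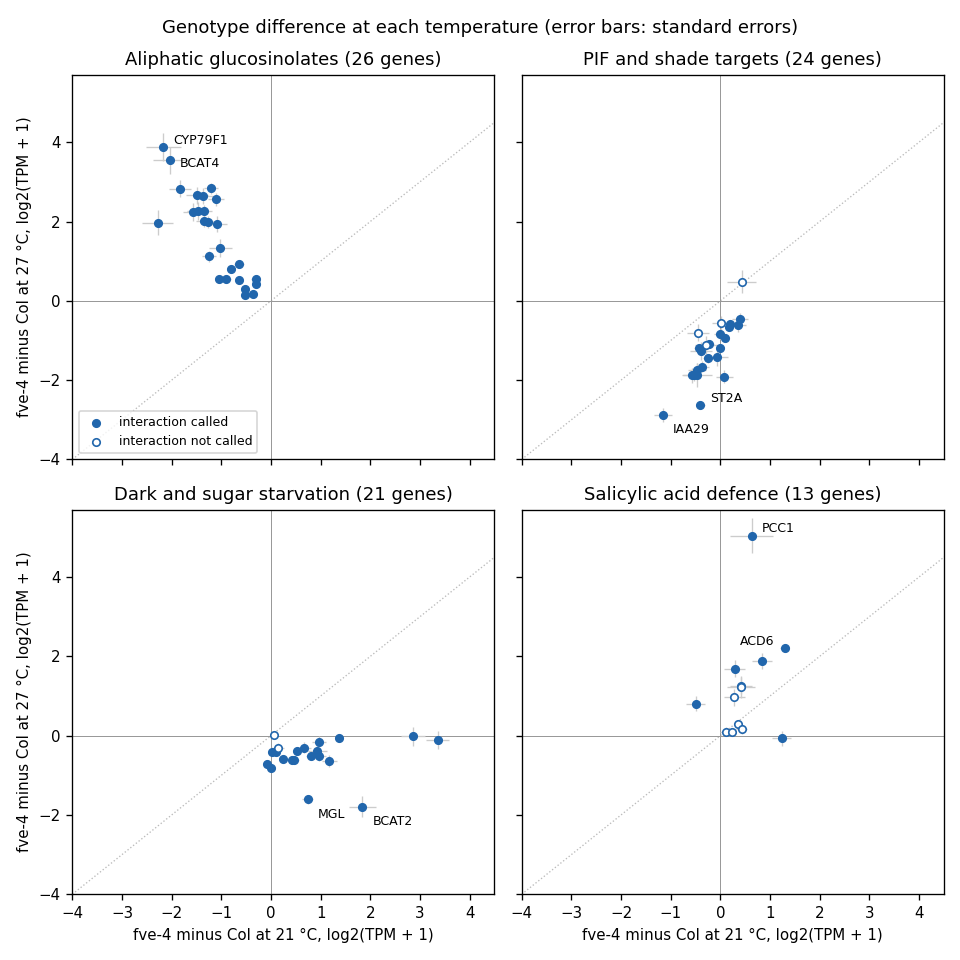
Difference between fve-4 and Col at 27 °C (y axis) against that at 21 °C (x axis), both in log2(TPM + 1) with standard errors, for the tested members of 4 lists. All 26 aliphatic glucosinolate genes lie left of 0 and above it, the starvation genes lie between -1.79 and 0.02 on the y axis and mostly right of 0, and filled points have a called interaction.

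Nitrate and ammonium genes were lower for 10 of 20 and higher for 3. The nitrate reductases led them: NIA1 was 264.2, 277.7 and 307.3 TPM in Col and 113.4, 111.9 and 100.7 in fve-4 (-1.37 ± 0.09), and NIA2 was lower by 0.81 ± 0.08, with -0.73 and -0.71 for the pair at 21 °C. NRT3.1, a partner of nitrate importers, was higher by 1.25. Of 33 nuclear photosystem and antenna genes, 10 were lower and 4 higher (30.3% and 12.1%, against 18.1% and 21.1% of all genes), with a median of -0.09. Their differences ran from -0.47 to 0.41, the value of LHCB1.1, an antenna protein whose near-identical copies may share reads. It was 36.59 ± 2.49 TPM in Col and 48.87 ± 2.95 in fve-4 (0.41 ± 0.08). LHCB4.2 (-0.49 to -0.43 over the settings tried), LHCB2.2 (-0.50 to -0.40) and LHCA3 (-0.44 to -0.33) were lower.

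Chloroplast-encoded genes, a list added after their values were seen, were lower for 42 of 71 tested and higher for 2, with a median of -0.80. Their summed level was 2345, 2399 and 2560 TPM in Col and 1458, 2033 and 2146 in fve-4, lowest in fve-4 replicate 1, and all mutant libraries lay below the wild type. At 21 °C 12 were lower and 3 higher. Without fve-4 replicate 1, 33 were lower and 6 higher.

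Of 21 heat shock proteins and factors tested, 5 were higher and 1 lower (23.8% and 4.76%), with a median of 0.18. The share higher was near the 21.1% of all genes. HSP70 was 55.11, 53.19 and 49.02 TPM in Col and 57.15, 52.47 and 45.79 in fve-4, fully overlapping (adjusted p = 0.887). HSP101, a disaggregase, was lower without a call (-0.20 ± 0.12, adjusted p = 0.192). HSP18.2, a small heat shock protein, was higher by 1.11 ± 0.25 and by 1.22 ± 0.25 at 21 °C. Of 13 cold acclimation genes, 3 were higher and 6 lower (23.1% and 46.2%, against 21.1% and 18.1% of all genes), between -0.76 for COR78 and 1.14 for KIN1. Without fve-4 replicate 1, 1 was higher. COR15A, a cold-induced chloroplast protein, was 1.876, 0.9508 and 3.360 TPM in Col and 5.401, 3.244 and 4.580 in fve-4, overlapping by 1 library. It was called higher (0.88 ± 0.24, adjusted p = 0.0122), but not without Col replicate 2 (0.59, adjusted p = 0.0516) or fve-4 replicate 1 (0.75, adjusted p = 0.0511).

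Chromatin genes other than FVE moved by small amounts. INO80, a remodelling ATPase, was at 50.62, 54.08 and 53.10 TPM in Col and 30.35, 31.94 and 29.32 in fve-4 (-0.77 ± 0.06, adjusted p = 1.64e-06), with no call at 21 °C (-0.01). Of 13 genes for the histone variant H2A.Z and its deposition, 2 were higher and 2 lower (15.4% each, against 21.1% and 18.1% of all genes). The higher ones were the H2A.Z genes HTA8 (0.33) and HTA11 (0.34). The lower ones were INO80 and ARP6 (-0.29), a subunit of the SWR1 complex, whose call was lost without fve-4 replicate 1. Of 26 other chromatin regulators, 4 were higher and 5 lower (15.4% and 19.2%, against 21.1% and 18.1% of all genes), between -0.48 and 0.47. Without Col replicate 1 or 3 or fve-4 replicate 2 or 3, 2 were higher. In the autonomous pathway 4 of 16 were lower and 0 higher (25.0% lower, against 18.1% of all genes). Among the lower ones were FCA (-0.59) and FPA (-0.63), both RNA-binding proteins. Cell cycle genes were higher for 6 of 20 and lower for 1 (30.0% and 5.0%, against 21.1% and 18.1% of all genes), with a median of 0.04. The largest differences were PCNA1 (0.56) and MCM2 (0.54), both of DNA replication. Abscisic acid and drought genes were higher for 3 of 21 and lower for 6 (14.3% and 28.6%, against 21.1% and 18.1% of all genes). Among the lower ones was NCED3 (-0.83), the limiting enzyme of abscisic acid synthesis. Without fve-4 replicate 1, 1 was higher, and without Col replicate 2, 3 were lower.

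Among the remaining lists, 1 of 10 seed maturation genes was higher (FUS3, 1.16 ± 0.18) and 1 lower (ABI3, -1.02 ± 0.19). The summed level of that list was 182.6 TPM in fve-4 replicate 3 against 68.77 to 93.29 in the other libraries at 27 °C, and 4 were lower without that library. Pollen and flower markers summed to 3.779 to 4.138 TPM in Col and 5.124 to 6.296 in fve-4, and 2 of 12 passed the filter. Of 12 genes in common use as references, 3 were lower and 2 higher (25.0% and 16.7%, against 18.1% and 21.1% of all genes). Their differences ran from -0.30 for ACT2 to 0.32 for AT5G60390.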

How the data were processed

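RNA-seq of whole seedlings was read from a deposited gene table with 12 libraries. Per the file headers the columns are gene counts, but the deposited values are TPM, since each column sums to 1000000. HISAT2 2.1.10, DESeq2 1.26.0 and fastp 0.20.1 stand with the TAIR10 build in the processing notes of the submitters, with no roles given, and the strand setting is not given in the sources used here. How TPM were made by the authors is not stated. They matched read number divided by gene span: all 23821 genes above 0 gave whole reads (tolerance 0.01), 23661 of them with RefSeq spans and the rest with a length found from the values. Overlapping genes and near-identical copies are uncertain. Levels were tested as log2(TPM + 1) with limma 3.58.1 (R 4.3.3, variance trend) over 4 group means and 12 libraries (8 residual degrees of freedom), two-sided, Benjamini-Hochberg adjusted. Replicates differed by more than sampling noise, so none was counted as a duplicate. Named genes were a fixed set, up to 4 called genes per list with the largest difference, and in each direction the 15 largest called changes of genes that carry a symbol, averaged 5 TPM or more where higher and did not overlap. Members named beyond that rule were chosen after their values were seen. The members and lists were chosen with earlier results of these data known. The script was tested on simulated data. Alternatives were 2 other pseudocounts, filters, scalings, limma-voom on the recovered reads with trimmed-mean scaling, a replicate block and leaving out libraries.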

Additional observations from a re-analysis of the deposited data

Results flagged for a closer look

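For 138 of 166 named genes the difference between fve-4 and Col at 27 °C differed from that at 21 °C by the interaction test of the same fit (adjusted p under 0.05). Of all genes tested, 33.2% were so called. Many of the named genes were chosen for a large difference at 27 °C, which also enters the interaction, so the count is a description. The 40 given here are those the text names first or ranked by size. Values are the difference at 27 °C minus that at 21 °C on the log2(TPM + 1) scale, with 3 libraries in each of 4 groups.

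The interaction was negative for 20 of the 40. Among growth genes it was -1.39 for PIF4, -1.31 for PIF5, -1.15 for HFR1, -0.89 for PIL1, -2.00 for YUC8, -1.35 for IAA19, -1.72 for IAA29, -1.56 for IAA6, -1.21 for ATHB2, -2.24 for ST2A, -1.30 for SAUR19, -1.39 for SAUR22, -1.22 for MAKR6, -1.76 for ACS8 and -2.77 for FLP1. In light and clock genes it was -0.87 for LUX, -0.72 for ELF3, -0.30 for PHYB and -1.87 for PRR7, and in BCAT2 of the starvation list -3.63. For PIL1 and SAUR22 the call was lost when some single libraries were left out and with limma-voom, which gave -0.28 and -1.19.

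It was positive for the other 20. It was 5.58 for BCAT4, 3.73 for MAM1, 6.04 for CYP79F1, 4.03 for CYP83A1 and 0.71 for MYB28 of the glucosinolate list, 3.2 for CHS, 1.79 for DFR and 2.59 for LDOX of the flavonoid list, and 3.3 for LSU1. It was 4.08 for IRT1 and 5.09 for CYP82C4 of the iron response, 3.02 for LOX2, 4.41 for PCC1, 3.02 for MES18, 3.43 for ECS1, 3.66 for MBP1, 2.43 for EARLI1 and 1.60 for COR15A. FVE (0.70) and PnsL4 (0.79) were lower in the mutant at both temperatures, by less at 27 °C.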

How the results depend on the processing

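Under 24 settings no named gene called in either fit turned its sign, while HSP70, which was not called, ranged from -0.14 to 0.06. Of 166 named genes, 149 kept their call at 27 °C under every setting, and genes named beyond the rule were not followed singly. Genes higher by at least 2-fold numbered 319 at a TPM minimum of 5, 808 with limma-voom on recovered reads, 841 and 148 with pseudocounts of 0.1 and 5, and 334 after quantile scaling, and those lower by at least 2-fold 253 with limma-voom and 69 with a pseudocount of 5. The share of higher among called genes went from 53.9% to 46.4% after quantile scaling, 46.9% with limma-voom, 49.0% after median-ratio rescaling and 49.5% at a TPM minimum of 5, so the excess of higher over lower genes depends on these settings. At a TPM minimum of 5, 6 flavonoid and 7 iron genes were higher. Without Col replicate 3 and fve-4 replicate 1 together, chosen after seeing the data, 2577 genes, 9 sulfate genes and 1 root marker were higher and 8 clock genes lower. Root markers higher were 6 with the 27 °C libraries alone and 7 after quantile scaling. The cause was not tested.

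Leaving out 1 library gave 3120 to 4124 genes higher and 2763 to 3558 lower, 385 to 652 and 145 to 194 by at least 2-fold, 8 to 14 clock genes lower, 9 to 14 sulfate genes higher and 3 to 12 root markers higher. Deviations from the group mean at 27 °C correlated at 0.19, -0.07 and 0.11 for the same replicate number, and at -0.26 to 0.19 for different numbers. With means of 3 libraries, these values cannot settle whether the numbers pair the samples. With the replicate block 4031 genes were higher and 3441 lower, 506 and 165 by at least 2-fold, and 0 of 166 named genes changed their call. Depth limits what can be said of genes near 0 TPM, where 1 read decides a value.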

Other observations

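Within the chloroplast-encoded list the largest difference was that of ATCG00820 (-2.68), a locus that the annotation used here does not name. PR1 and PR2, late markers of salicylic acid defence, were below the TPM filter and were not tested.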
